A study of Homo sapiens with 6 samples.

Results

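The regions described here were BORIS peaks of BORIS-expressing FT282 cells at which CTCF was also called, both in these cells and in the empty-vector cells, and which lay at the end of a gene. They were chosen from the deposited peak lists. A BORIS peak was taken when it overlapped, by at least 1 bp, a CTCF peak of the EV list and a CTCF peak of the BORIS-cell list, and when its centre was no more than 1 kb from one or the other end of a gene as the expression table spans it. Of the 23653 BORIS peaks, 3313 met this rule. They are called end regions below. With an overlap of at least 50% of both peaks the count was 1843, and with peaks above the median score of each list it was 1378. The overlaps, the distance and the fact of being called were used to choose them and are given as description. CTCF being called in both lists does not show that its amount was equal.

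FT282 is an immortalised line of the secretory epithelium of the human fallopian tube, and a clonal derivative of it was used. One arm stably expressed the Empty Vector (EV) and the other stably expressed BORIS. Mouse monoclonal antibodies to CTCF were used for chromatin immunoprecipitation in both arms and one to BORIS in the BORIS arm, an input of EV cells was sequenced, and RNA was sequenced in both arms, with 6 samples in all and 1 in each group. The cells grew asynchronously, the line is 1 clone, read depth was unknown, and no value below has a replicate error, so that differences are those between single libraries.

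CTCF is a zinc finger protein that binds a long, GC-rich motif and stops the movement of cohesin, which places it at loop anchors, insulators and many promoters. BORIS, the product of the CTCFL gene, is its paralog. The zinc fingers of both proteins are nearly alike, while their ends differ, and BORIS is normally made in male germ cells and is silent in most somatic tissue.

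As examples of promoters at end regions, 5 sequences are printed. They are not typical in their matches, since 24.5% of promoters at end regions held any. No sequence was read from the peaks themselves. The promoters are from RefSeq, build GRCh38.p14, from 250 bp before to 50 bp after the most upstream start of each gene, matched by gene symbol, and peak coordinates below are of hg19 and were not placed on them. Capitals mark each match, on either strand, to the core of the CTCF motif, searched as CC, then any 3 bases, AG, any 2 bases and GGC. A match is a match of letters and not a measured site. STEAP1 and FOXA3 were among the genes with an end region at the start and the highest RNA ratios, and their promoters held 2 and 1 matches. STAG1, a cohesin subunit, held 2 and CXCL2, a chemokine, held 1. CLGN, an endoplasmic reticulum chaperone of the testis, held 0. The last 3 were picked after their values were seen. The promoters of GALNT14, SRPX, ITGA4, STEAP2 and TFPI2, also among the highest ratios with an end region at the start, held 0 and are not printed. The printed promoters lie at chr7:90154219-90154518 on the plus strand for STEAP1, chr19:45864076-45864375 on the plus strand for FOXA3, chr3:136752329-136752628 on the minus strand for STAG1, chr4:74099146-74099445 on the minus strand for CXCL2 and chr4:140427599-140427898 on the minus strand for CLGN.
STEAP1: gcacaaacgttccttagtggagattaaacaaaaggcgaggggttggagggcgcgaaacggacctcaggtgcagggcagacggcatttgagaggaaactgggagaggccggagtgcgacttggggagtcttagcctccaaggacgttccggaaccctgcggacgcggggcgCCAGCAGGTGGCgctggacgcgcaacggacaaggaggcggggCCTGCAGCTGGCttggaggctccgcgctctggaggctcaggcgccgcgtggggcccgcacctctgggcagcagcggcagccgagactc
FOXA3: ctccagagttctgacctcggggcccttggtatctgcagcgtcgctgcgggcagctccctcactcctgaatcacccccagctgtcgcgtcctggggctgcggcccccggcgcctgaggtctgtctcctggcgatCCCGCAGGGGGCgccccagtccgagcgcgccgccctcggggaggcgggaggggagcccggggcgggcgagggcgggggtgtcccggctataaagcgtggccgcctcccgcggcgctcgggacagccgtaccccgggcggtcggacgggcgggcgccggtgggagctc
STAG1: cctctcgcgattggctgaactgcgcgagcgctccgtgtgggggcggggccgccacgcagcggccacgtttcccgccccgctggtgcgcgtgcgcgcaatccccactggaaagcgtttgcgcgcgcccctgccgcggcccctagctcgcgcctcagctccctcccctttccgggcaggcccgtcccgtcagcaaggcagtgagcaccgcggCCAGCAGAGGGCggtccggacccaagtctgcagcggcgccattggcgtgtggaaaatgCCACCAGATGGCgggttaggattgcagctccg
CXCL2: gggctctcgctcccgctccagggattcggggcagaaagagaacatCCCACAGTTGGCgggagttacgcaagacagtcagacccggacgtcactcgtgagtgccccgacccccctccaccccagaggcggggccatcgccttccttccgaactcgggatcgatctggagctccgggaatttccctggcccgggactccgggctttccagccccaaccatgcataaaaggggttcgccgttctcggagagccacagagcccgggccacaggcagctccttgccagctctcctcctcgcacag
CLGN: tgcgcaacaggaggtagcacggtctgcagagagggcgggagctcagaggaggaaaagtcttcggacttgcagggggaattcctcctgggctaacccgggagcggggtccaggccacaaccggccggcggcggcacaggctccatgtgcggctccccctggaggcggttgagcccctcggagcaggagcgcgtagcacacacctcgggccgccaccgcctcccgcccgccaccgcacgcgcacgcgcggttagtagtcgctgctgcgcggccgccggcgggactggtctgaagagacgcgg

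Promoters at end regions held the CTCF core more often than promoters at the other kinds of peak. Of 2316 promoters of genes with an end region at their start, 567 held at least 1 match, which is 24.5% (95% Wilson interval 22.8 to 26.3, covering counting error only, as do all intervals below). Promoters at BORIS peaks that overlapped no CTCF peak held one in 12.8% of 3083 (11.6 to 14). Promoters at constant CTCF peaks with no BORIS peak held one in 15.6% of 378 (12.3 to 19.6). With a stricter core, which fixes 1 more G, the shares were 14.6%, 5.42% and 7.14%. For the first core the differences were 11.7 points (Newcombe interval 9.60 to 13.8) and 8.87 points (4.52 to 12.6). The searched stretch, 250 bp before to 50 bp after the start, does not hold the peaks of each class equally often. Quartiles of the distance from the nearest start were -226 and 297 bp at end regions. They were -30 and 464 bp at BORIS peaks without CTCF and -478 and 288 bp at CTCF peaks without BORIS. The part of this in the differences was not tested. End regions were also chosen for CTCF being called.

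For background, of all 27282 RefSeq promoters, 1 per gene, 10.6% held a match, and of 15327 promoters of expression-table genes 13.1% did. Where the end region lay at the stop of the gene alone, the promoter held a match in 12.6% of 581 genes (10.1 to 15.5). G+C content moved with these classes, with medians of 66.3% at end regions, 65.3% at BORIS peaks without CTCF and 64% at CTCF peaks without BORIS. Within deciles of G+C content the differences were 11.3 points (normal-approximation interval 9.24 to 13.4) and 7.78 points (3.48 to 12.1). CpG dinucleotides numbered 27 per promoter at the median at end regions and 27 at BORIS peaks without CTCF, against 22 at CTCF peaks without BORIS and 13 over all promoters.

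Paired matches were uncommon in every class. At least 2 matches were found in 65 of the 2316 promoters, or 2.81% (2.21 to 3.56), against 1.27% (0.927 to 1.72) at BORIS peaks without CTCF and 2.65% (1.44 to 4.8) at CTCF peaks without BORIS. The share over all RefSeq promoters was 0.913%. The centre of the 640 matches at end regions lay at a median of -94 bp from the start, that is upstream of it, with quartiles at -155 and -44.8 bp. In STEAP1 the matches began 80 and 38 bp upstream of the RefSeq start, and in FOXA3 117 bp upstream.

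**Figure D1:**
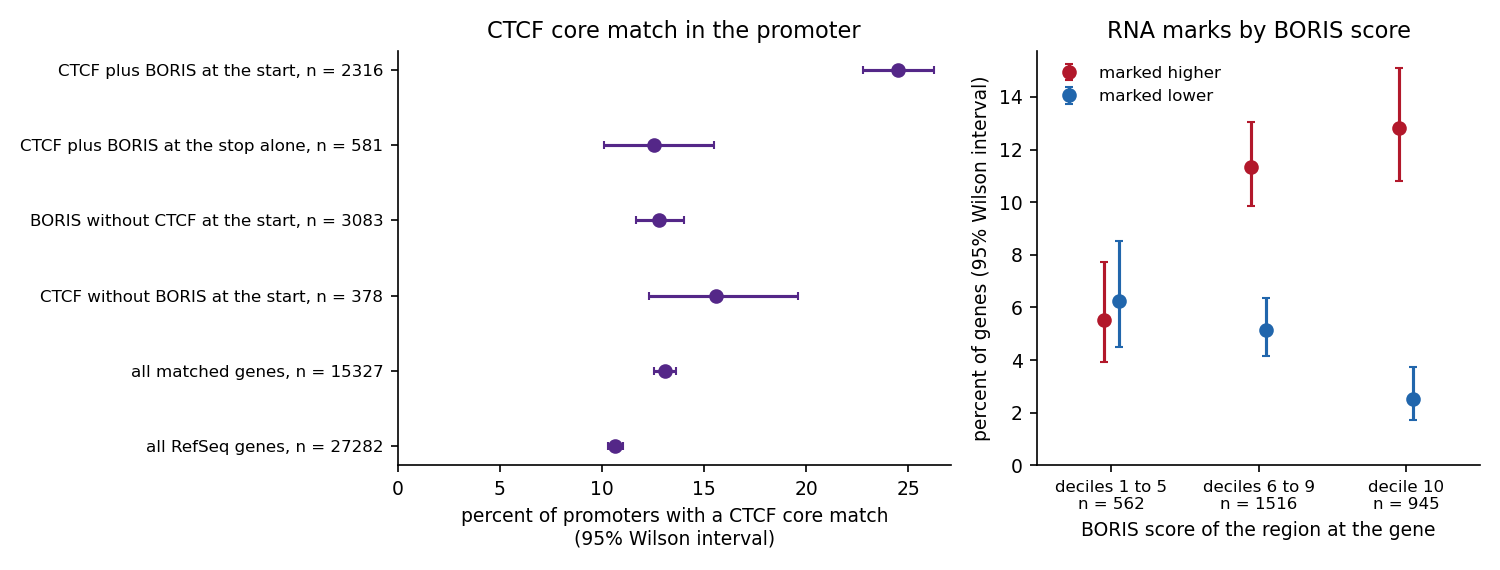
Left, percent of promoters with at least 1 CTCF core match (x axis) by the peaks at the gene (y axis), with 95% Wilson intervals; the 24.5% at starts with CTCF plus BORIS lies above the other classes. Right, percent of genes with an end region that the authors marked higher or lower in RNA (y axis) by the BORIS score of the region (x axis), with the same intervals; marks higher go from 5.52% to 12.8% and marks lower from 6.23% to 2.54%.

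End regions were wide and stood high in the BORIS list, but not in the CTCF lists. Scores are the authors' and have no stated unit, so each was read only within its own list. The BORIS score had a median of 461 at end regions (quartiles 267 and 799, range 27 to 3495), 295 at the 11232 distal BORIS peaks with constant CTCF and 200 at the 4598 BORIS peaks at gene ends without CTCF. In the top decile of the BORIS list lay 895 of the 3313 end regions, 27.0%, against 11.9% of the distal peaks and 1.35% of those without CTCF. In the EV CTCF list the order was the other way, with 50.5% of end regions and 75.4% of distal peaks above the median score of the list. In the BORIS-cell CTCF list these shares were 55.6% and 77.1%. The plot of score deciles shows the CTCF scores of end regions spread nearly evenly over the EV list.

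**Figure D2:**
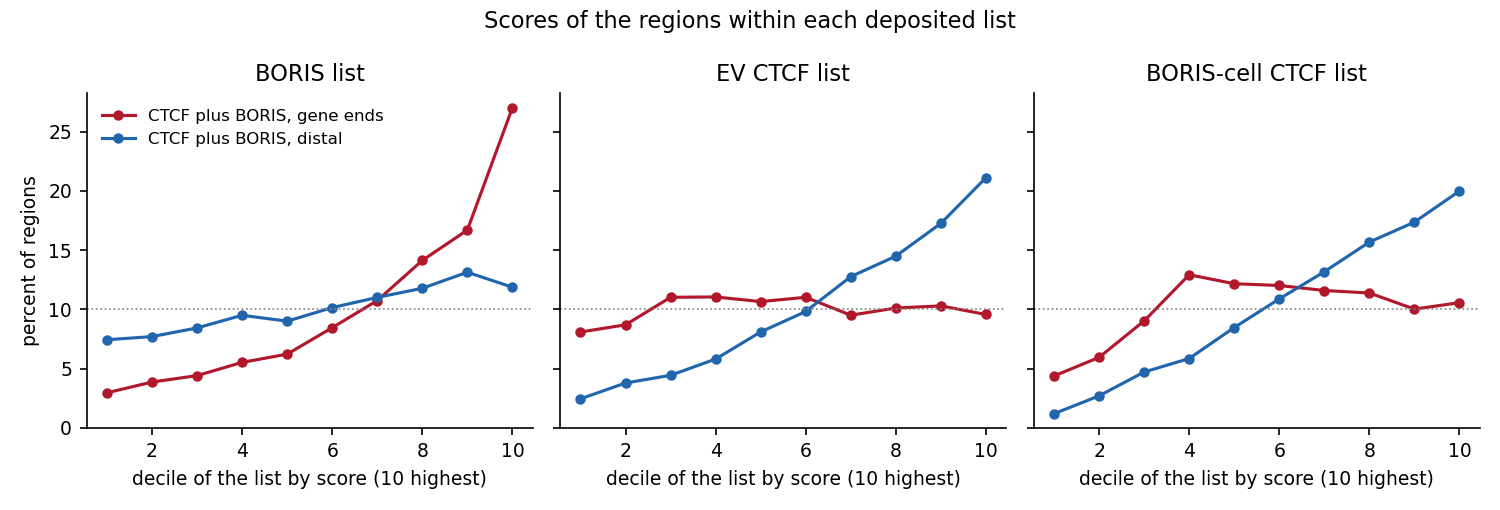
Percent of regions (y axis) in each decile of the BORIS, EV CTCF and BORIS-cell CTCF lists by the authors' score (x axis, 10 the highest), for end regions and for distal BORIS peaks with constant CTCF; the dotted line is an even spread of 10%. End regions reach 27.0% in the top BORIS decile, and distal peaks reach 21.1% in the top EV CTCF decile.

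The median width of an end region was 536 bp, against 309 bp for the distal peaks and 527 bp for BORIS peaks at gene ends without CTCF. Several CTCF peaks under 1 BORIS peak were rare. In the BORIS-cell list, 103 end regions overlapped 2 CTCF peaks and 7 overlapped 3, together 110 or 3.32% (2.76 to 3.99), against 0.659% (0.525 to 0.826) of distal peaks. The difference of 2.66 points (2.08 to 3.34) was not seen among peaks of like width, where it was -0.84 points (-1.91 to 0.23) within deciles of width. Of the 110, 94 were in the widest decile of peaks. With CTCF peaks above the median score of their list alone, the share was 0.302%.

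The BORIS and CTCF positions inside the peaks nearly coincided. The position the authors give inside a BORIS peak was at a median of 17 bp from the nearest CTCF position of BORIS cells at end regions (quartiles 8 and 35 bp), and 14 bp at distal peaks. They were within 50 bp of each other at 82.6% of end regions (81.3 to 83.9) and 93.0% of distal peaks (92.6 to 93.5). Within deciles of width this difference was -2.97 points (-4.79 to -1.15), in place of -10.4 points overall. From the BORIS position to the nearest CTCF position of EV cells the median was 19 bp at end regions.

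The 6 end regions of highest BORIS score show how these peaks overlie each other. The highest, 3495, lay at chr19:56164944-56165340 (hg19), between U2AF2, which encodes a subunit of the splicing factor that reads 3′ splice sites, and CCDC106. The EV and BORIS-cell CTCF peaks there scored 3661 and 3682, both in the top decile of their lists, and the BORIS and CTCF positions were 1 bp apart. U2AF2 RNA was 56.1 FPKM with EV and 57.0 FPKM with BORIS. The next were at CCDC144B, LOC100289019 and VPS37C, which encodes a subunit of the ESCRT-I sorting complex, with BORIS scores of 3258, 3203 and 3182 and CTCF peaks in the top decile of both lists.

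The other two of these were at the overlapping SNORA7B and RPL32P3 (BORIS score 2879) and at PHLPP1, a phosphatase of the AKT kinase (2764). None of the named genes at the 6 regions carried a significance mark in the authors' deposited table. CCDC144B (0.0898 FPKM with EV and 0.118 FPKM with BORIS) and LOC100289019 (0.439 and 0.382 FPKM) were not tested there and could not carry one. Their log2 ratios of BORIS to EV RNA, with 1 FPKM added to each, lay between -0.06 and 0.17, apart from CCDC106 at -0.09. The ratios of CCDC144B and LOC100289019 are held near 0 by the added 1 FPKM. At the other genes a top BORIS score thus occurred beside RNA levels that differed little between the libraries.

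Of the 7 end regions with 3 CTCF peaks of BORIS cells, the most seen, the 4 of highest BORIS score were at ZFP64, UST, CCDC85A and ADAMTS1. At CCDC85A the BORIS peak, chr2:56410705-56413254, was 2550 bp wide and covered EV CTCF peaks of score 1792 and 53 and BORIS-cell CTCF peaks of 2418, 74 and 256. CCDC85A RNA was 3.27 FPKM with EV and 4.76 FPKM with BORIS, and it was marked higher in the authors' deposited table (q = 0.00082). UST, a sulfotransferase of chondroitin and dermatan sulfate whose span is shared with another row, stood at 6.70 FPKM with EV and 9.10 FPKM with BORIS. It was also marked higher in the authors' deposited table (q = 0.00082). ADAMTS1, a secreted metalloprotease, had 4 EV CTCF peaks, all of low score (56 to 86), and RNA of 70.2 and 75 FPKM, with no mark.

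Around the distance limit, the nearest regions inside were at ZNF503-AS1 and SLC2A8, each with its centre 998 bp from the end, and the nearest outside at C14orf176 with ZNF219 (1002 bp) and SPRED1 (1002.5 bp). Their BORIS scores were 143 and 515 inside and 1501 and 211 outside.

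End regions lay at gene starts in most cases, close to and slightly upstream of them. The span does not say which end is the start, so strand was taken from RefSeq by gene symbol, for 2586 of the 3313 regions. Of these, 1933 were at starts alone, 361 at stops alone and 292 at both, so that 86.0% (84.7 to 87.3) were at a start. BORIS peaks without CTCF were at a start in 96.9% (96.3 to 97.4) and constant CTCF peaks without BORIS in 56.8% (53.6 to 60.0). The differences were -10.8 points (-12.3 to -9.41) and 29.2 points (25.8 to 32.7).

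The centre of an end region lay at a median of 45 bp upstream of the nearest start (a signed distance of -45 bp, quartiles -226 and 297). BORIS peaks without CTCF lay at a median of 181 bp downstream of it, and constant CTCF peaks without BORIS at -101 bp. Within 100 bp of the start lay 25.3% of end regions at starts (23.5 to 27.2), 17.4% of BORIS peaks without CTCF and 18.0% of CTCF peaks without BORIS. The differences were 7.87 points (5.70 to 10.1) and 7.30 points (3.35 to 10.9). End regions with starts on both strands within 1 kb made up 5.39%, against 8.81% for BORIS without CTCF, a difference of -3.42 points (-4.72 to -2.07).

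**Figure D3:**
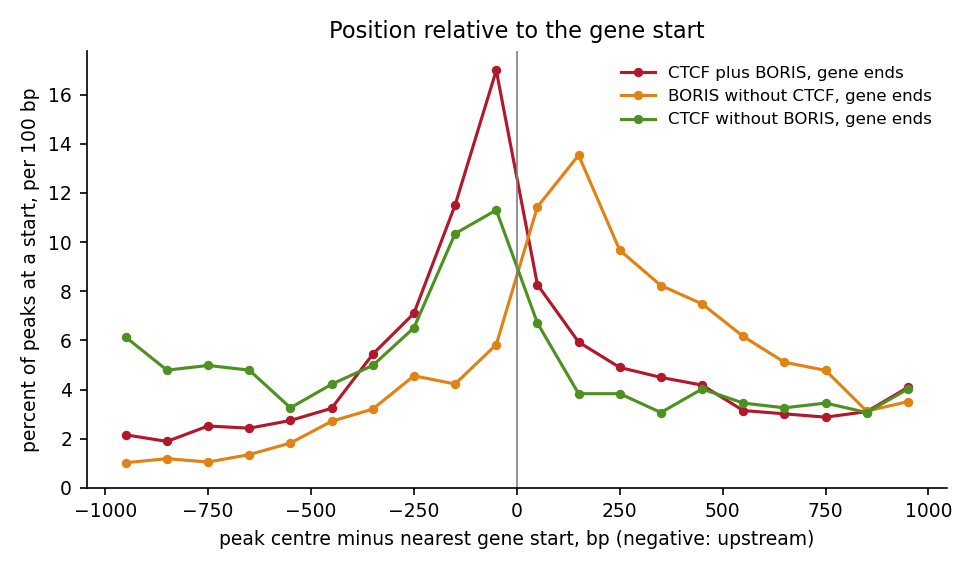
Percent of peaks at a start (y axis, per 100 bp) by the distance of the peak centre from the nearest gene start (x axis, negative upstream), for 3 kinds of peak at gene ends. End regions peak at 17% in the 100 bp just upstream, and BORIS peaks without CTCF at 13.5% between 100 and 200 bp downstream.

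As a fraction of their class, 22.8% (22.1 to 23.5) of the 14545 BORIS peaks with constant CTCF were within 1 kb of a gene end. The share was 57.9% of 7937 BORIS peaks without CTCF in either list and 4.83% of 25953 constant CTCF peaks without BORIS. Most end regions, 2504, were near the ends of 1 gene, 588 near those of 2 and 221 near those of 3 or more. One region lay at the shared end of 23 rows, those of the gamma protocadherin cluster.

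The genes with an end region were read next for RNA, which the rule did not use. Of 22891 gene rows on the chromosomes of the lists, 4157 had an end region, and 3023 of these had at least 1 FPKM in either library, 72.7% (71.3 to 74.1). The share was 82.1% of genes with BORIS without CTCF, 46.7% of genes with constant CTCF without BORIS and 37.0% of genes with no peak at either end. Each gene was counted once, in the first of these classes it met in the order given, with end regions first. Genes near other kinds of peak alone, such as BORIS with CTCF called in only 1 list, were in none of these classes. They count only among all genes. Genes that share a span share their peaks, and 319 genes had 2 or more end regions, so genes are not independent of each other.

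RNA of genes with an end region stood slightly higher in BORIS cells. The median log2 ratio over the 3023 genes was 0.04, with quartiles of -0.07 and 0.14, and 1817 genes, 60.1%, were above 0. The medians were 0.00 for genes with BORIS without CTCF, -0.03 for constant CTCF without BORIS, -0.02 for genes with no peak and 0.00 for all 12363 genes with 1 FPKM. Less RNA per cell and fewer cells of a type cannot be told apart in such bulk samples.

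The larger gap was in the genes that the authors marked. Of the 3023 genes with an end region, 324 were marked higher in BORIS cells in the authors' deposited table, 10.7% (9.66 to 11.9), where 5.46% of all genes tested were so marked. The share was 3.48% (2.94 to 4.12) with BORIS without CTCF, 3.33% (2.06 to 5.33) with constant CTCF without BORIS and 3.46% (2.97 to 4.03) with no peak. The differences were 7.24 points (6.01 to 8.51), 7.39 points (5.12 to 9.11) and 7.26 points (6.06 to 8.51). Genes near other kinds of peak alone are in none of these shares, and some of them were also marked higher. The gap is thus not shown to be particular to end regions. Thus 324 of the 675 marked genes, among them GALNT14 and CLGN, had an end region, which 24.5% of all genes with 1 FPKM had. The sources used here do not say how many libraries stood behind the authors' marks.

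BORIS score and RNA level also differed between these classes. Within deciles of the BORIS score, the difference from genes with BORIS without CTCF was 7.14 points (5.31 to 8.98). Within deciles of mean RNA level it was 6.95 points (5.71 to 8.19), and the difference from genes with no peak was 7.58 points (6.40 to 8.76). Marks higher were commoner at low RNA levels, with 24.5% of genes with an end region in the lowest decile and 5.72% in the fifth.

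Marks lower were not commoner at end regions. They were carried in the authors' deposited table by 137 of the 3023 genes, 4.53% (3.85 to 5.33), where 6.44% of all genes tested were marked lower. The share was 4.49% (3.87 to 5.20) with BORIS without CTCF, 11.6% (9.08 to 14.8) with constant CTCF without BORIS and 8.79% (8.0 to 9.65) with no peak. The difference from BORIS without CTCF was 0.04 points (-0.95 to 1.05), and that from CTCF without BORIS -7.11 points (-10.4 to -4.42).

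These shares differed between the ends of the gene. Of 1949 genes with an end region at the start, 247 were marked higher in the authors' deposited table, 12.7% (11.3 to 14.2), and 79 marked lower, 4.05% (3.26 to 5.02). Of 372 genes with an end region at the stop alone, 11 were marked higher, 2.96% (1.66 to 5.22), and 26 marked lower, 6.99% (4.81 to 10.0). The difference in marks higher was 9.72 points (7.06 to 11.7). At starts with BORIS without CTCF the share marked higher was 3.27% and at starts with constant CTCF without BORIS 3.85%. Start and stop are uncertain here, since strand was matched by gene symbol and shared spans can put the wrong gene at an end. The same region counts at the stop of ACTA2 and the start of FAS. Span length was within 1 kb of RefSeq for 1473 of 2319 genes with an end region at the start. The marks were not counted for these alone.

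**Figure D4:**
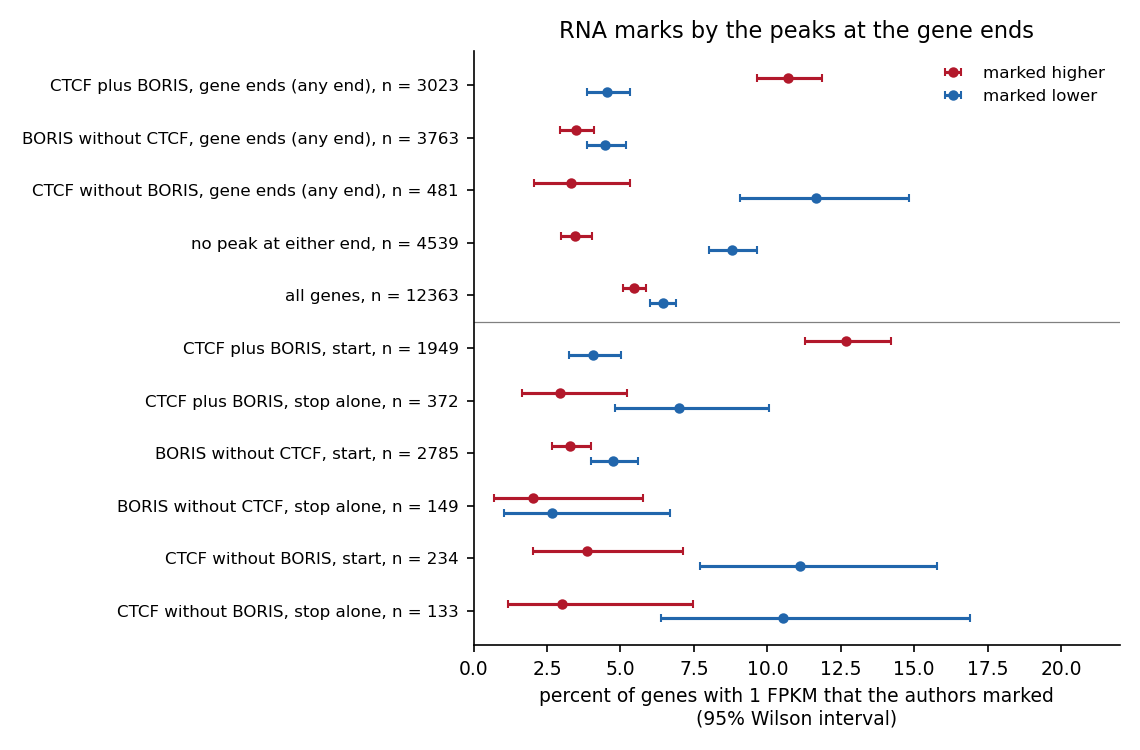
Percent of genes with 1 FPKM that the authors marked higher or lower in BORIS cells (x axis, with 95% Wilson intervals), by the peaks at their ends (y axis; above the line any end, below it the start or the stop alone). Starts with CTCF plus BORIS reach 12.7% marked higher, and stops with CTCF plus BORIS 2.96%. Start and stop rest on strand matched by gene symbol and are uncertain on shared spans.

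The shares also moved with the BORIS score of the region, as the plot of motif share and BORIS score shows. Of 562 genes whose highest end region was in deciles 1 to 5 of the BORIS list, 5.52% (3.91 to 7.72) were marked higher in the authors' deposited table and 6.23% (4.51 to 8.54) lower. Of 945 genes in decile 10, 12.8% (10.8 to 15.1) were marked higher and 2.54% (1.71 to 3.75) lower. The EV CTCF score gave the other order for marks higher, 11.8% (10.2 to 13.5) in deciles 1 to 5 and 8.45% (5.74 to 12.3) in decile 10, with overlapping intervals. Of the genes with an end region at the start, 16.3% of 471 with a CTCF core match and 11.5% of 1478 without one were marked higher, a difference of 4.85 points (1.33 to 8.77).

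By a fixed fold, with log2 ratios of at least 1 or at most -1, 53 of the 3023 genes were higher and 22 lower, 1.75% and 0.728%, where 1.42% and 0.922% of all genes were. With a pseudocount of 0.1 FPKM, 92 of the 3023 were higher, and 246 of all 12363 genes. Many of the 53 and 22 were small RNA genes, whose FPKM can be high from few reads. The MIR, SNORD, SNORA and RNU families made up 25 of the 53 and 16 of the 22. Without them and with estimates marked usable, 27 genes were higher and 4 lower of 2922, where 0.454% and 0.16% of all 11904 genes were. Over all genes there were 54 higher and 19 lower. Genes with BORIS without CTCF gave 9 and 3 of 3646, genes with constant CTCF without BORIS 0 and 1 of 458, and genes with no peak 12 and 9 of 4331. Genes near other kinds of peak alone are in none of these classes, and some of them were also higher by this fold. The larger share higher is thus not shown to be particular to end regions.

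Of the 27, 17 were below 1 FPKM in EV cells and 25 were marked higher in the authors' deposited table. In deciles 8 to 10 of the BORIS list lay the end region of 24 of them, and that of 63.2% of the 2922 genes. Genes that passed from below 1 FPKM in EV cells to at least 1 FPKM in BORIS cells with this fold numbered 35 in all. End regions lay at 17 of these, 48.6%, where 24.5% of all genes with 1 FPKM had one. Without the fold, 195 genes passed 1 FPKM in this way, and 66 of them, 33.8%, had an end region.

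GALNT14, a transferase that puts the first sugar of mucin-type glycans on proteins, had the highest ratio. Its RNA was 0.141 FPKM with EV and 8.16 FPKM with BORIS, a log2 ratio of 3.0. The BORIS peak at its start, chr2:31360734-31361886, scored 437, in decile 8 of its list. It covered EV CTCF peaks of score 166 and 225, in decile 3 of their list, and BORIS-cell CTCF peaks of 909 and 877, in decile 5 of theirs. GALNT14 was thus near zero in EV cells while CTCF was already called at its start at a low score.

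CLGN had RNA of 2.17 FPKM with EV and 12.5 FPKM with BORIS, a log2 ratio of 2.09. Its end region, chr4:141347924-141349111, had a BORIS score of 514 and, as at GALNT14, a pair of CTCF peaks in each list, of 73 and 228 in EV cells and 113 and 1006 in BORIS cells. STEAP1, a metalloreductase family member of the plasma membrane, was at 0.348 and 3.37 FPKM, with an end region of BORIS score 669 and 1 CTCF peak in each list (1701 and 2054). These CTCF peaks of STEAP1 were in decile 8 of both lists, well above those of GALNT14.

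STEAP2, of the same family and in the same stretch of chromosome 7, was at 1.06 FPKM with EV and 4.47 FPKM with BORIS, with a BORIS score of 1250. GABRA5, a GABA-A receptor subunit, was at 0.103 and 2.21 FPKM. Its end region scored 1442 in the BORIS list, in decile 10, and its EV CTCF peak 47, in the lowest decile. FOXA3, a forkhead transcription factor, was at 0.0243 and 1.73 FPKM and carried no mark in the authors' deposited table (q = 0.503).

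The others of the 10 highest were SRPX (3.17 and 10.8 FPKM), the integrin subunit ITGA4 (0.237 and 2.30 FPKM), the cornified envelope gene CNFN (0.327 and 2.41 FPKM) and the protease inhibitor TFPI2 (3.81 and 11 FPKM). All except FOXA3 were marked higher in the authors' deposited table. CNFN had its end region at the stop, and the strand of GABRA5 was not matched. The other 8 had it at the start. The span of ITGA4 is shared with another row. BORIS scores at the 10 lay in deciles 6 to 10 of the BORIS list and EV CTCF scores in deciles 1 to 8 of theirs.

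**Figure D5:**
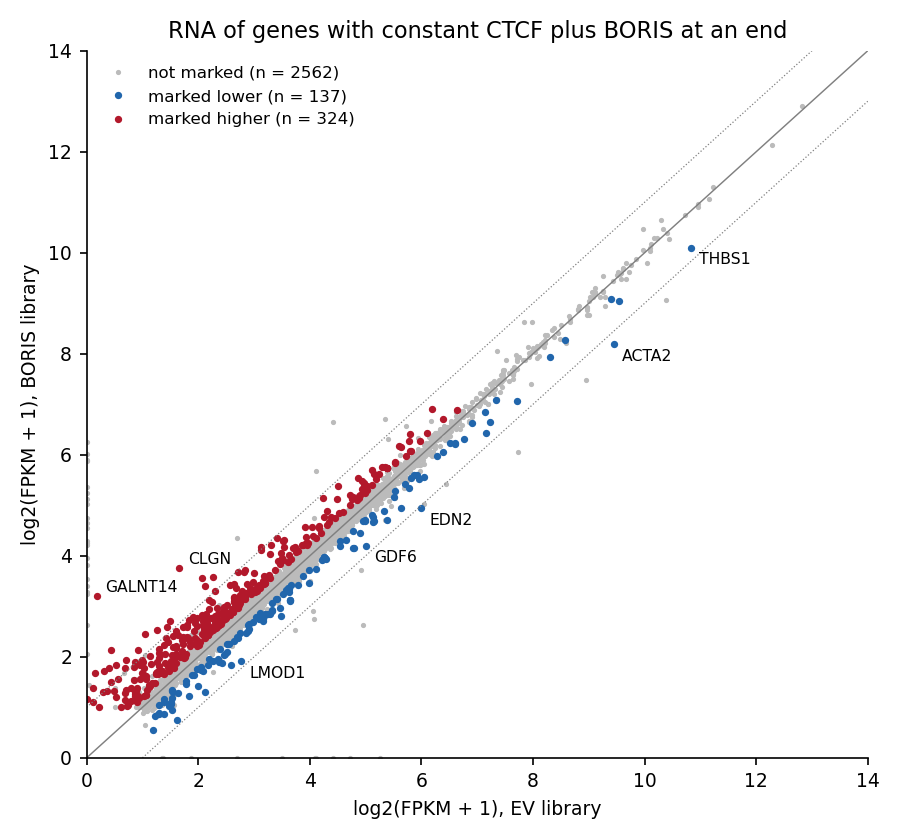
RNA of the 3023 genes with an end region in EV cells (x axis) and in BORIS cells (y axis), both log2(FPKM + 1), coloured by the authors' marks; the solid line is equality and the dotted lines a log2 ratio of 1 and -1. GALNT14 and CLGN stand far above the upper line, and ACTA2 and EDN2 fall just outside the lower one.

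Of the 10 lowest, PCNA-AS1 (2.63 FPKM in EV cells and listed at 0 in BORIS cells) and TNFAIP8L2-SCNM1 (1.55 and 0.00031 FPKM) overlap other genes on shared spans, were not marked in the authors' deposited table and are uncertain. EDN2, an endothelin, was at 62.5 FPKM with EV and 29.7 FPKM with BORIS, with an end region at its start of low score in both the BORIS list (126, decile 1) and the EV CTCF list (45, decile 1). THBS1, the matricellular protein thrombospondin, was at 1825 and 1098 FPKM, a log2 ratio of -0.73, with 2 end regions.

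ACTA2, smooth muscle actin, was at 697 and 292 FPKM, a log2 ratio of -1.25, but shares its span with FAS, so which gene its 2 end regions lie at cannot be told. TP53I11 (2.08 and 0.69 FPKM) and TSPAN18 (4.98 and 2.59 FPKM) likewise share a span and 1 end region. LMOD1, a smooth muscle actin nucleator, was at 5.80 and 2.77 FPKM and FBXO44, an F-box protein, at 3.34 and 1.47 FPKM, both with the end region at the stop by their spans, of which that of FBXO44 is shared with another row. GDF6, a bone morphogenetic protein, was at 31.2 and 17.4 FPKM. These 8 genes other than PCNA-AS1 and TNFAIP8L2-SCNM1 were all marked lower in the authors' deposited table.

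RNA of CTCFL, which encodes BORIS, went the way of the labels. CTCFL was at 0.00532 FPKM with EV and 53.3 FPKM with BORIS, yet carried no mark in the authors' deposited table (q = 0.484). The marks thus leave out some large differences. No end region lay at the ends of CTCFL. CTCF, at 21.1 and 20.8 FPKM, had an end region 314.5 bp inside its start with a BORIS score of 263. Of 16 genes of CTCF, cohesin and its loaders, 7 had an end region, where 24.5% of all genes with 1 FPKM did. ESCO1, an acetyltransferase of cohesin (7.27 FPKM with EV and 8.90 FPKM with BORIS), and STAG1 (16.3 and 19.4 FPKM) were marked higher in the authors' deposited table, with log2 ratios of 0.26 and 0.24. The median of the 7 was 0.02.

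Among inflammatory genes, end regions lay beside members that stood higher in BORIS cells, as the lists did as a whole. In the list of cytokines and NF-kB targets, 7 of 24 genes had an end region. All 7 were above 0, and 4 were marked higher in the authors' deposited table, as were 12 of the 21 measured genes of the list. Their median log2 ratio was 0.33, beside 0.34 for those 21. CXCL2 was at 0.929 FPKM with EV and 2.58 FPKM with BORIS and CXCL3, which like it draws neutrophils, at 1.38 and 2.73 FPKM, with BORIS scores of 1238 and 976.

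In the interferon list, 6 of 25 genes had an end region. All 6 were above 0, and 5 were marked higher in the authors' deposited table, where 11 of the 22 measured genes of the list were marked higher and 1 lower. Their median was 0.32, beside 0.27 for the 22. HERC5, an ISG15 ligase, was at 1.66 and 4.19 FPKM and the mitochondrial protein IFI6 at 18.0 and 26.4 FPKM. Of the 28 DNA repair genes, 6 had an end region and all were above 0, with a median of 0.07, beside 0.00 for the list. One of them, the damage kinase ATM (14.3 and 18.0 FPKM), was marked higher in the authors' deposited table. Over the whole repair list 1 gene was marked higher and 1 lower in that table.

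In other lists the genes with an end region were mostly below 0. All 9 DNA replication and mitosis genes with one were below 0, with a median of -0.11 beside -0.10 for the 34 measured, and 2 were marked lower in the authors' deposited table, of 6 in the list. These were the cyclin CCND1 (108 FPKM with EV and 79.0 FPKM with BORIS) and the thymidylate synthase TYMS (77.1 and 61.8 FPKM, on a span shared with another row). All 4 smooth muscle and actin genes, ACTA2, LMOD1, MYL9 and ZYX, were marked lower in the authors' deposited table, with a median of -0.67 beside -0.33 for the list. Of the 20 genes of that list 14 were marked lower and 2 higher in the authors' deposited table. Of 8 extracellular matrix genes with an end region, 7 were below 0 and 3 were marked lower in the authors' deposited table, among them COL1A1 (64.8 and 46.5 FPKM). Of the 25 measured matrix genes 13 were marked lower and 1 higher in the authors' deposited table. The median was -0.05 for the 8 beside -0.28 for the 25.

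In the remaining lists, ratios at end regions were small. Of the ribosomal proteins 11 of 38, of the mitochondrial ribosomal proteins 12 of 37, of the proteasome subunits 9 of 31 and of the aminoacyl-tRNA synthetases 10 of 34 had an end region. None of these was marked in the authors' deposited table, and the medians lay between 0.02 and 0.04. Sterol synthesis genes (6 of 21, median 0.11), p53 targets (6 of 19, median -0.10), imprinted genes (3 of 24, median -0.12) and zinc finger genes of chromosome 19 (6 of 61, median 0.10) had no mark in that table at the genes with an end region. Elsewhere in these lists that table has marks: 6 p53 targets and 1 imprinted gene were marked lower, and 1 zinc finger gene and 1 sterol gene higher. Medians are over the genes with an end region and 1 FPKM. Of 22 histone genes 6 had an end region, and HIST3H2A (11.9 and 16.9 FPKM) was marked higher in the authors' deposited table.

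Few germ-line genes reached 1 FPKM, with or without an end region. An end region lay at 18.2% of all genes. Of the 20 cancer-testis antigen genes found 2 had one, and neither reached 1 FPKM. The 1 gene of the 20 that did was CTCFL, which encodes BORIS itself. Of 30 meiosis and germ cell genes 4 had one, and CLGN alone of these reached 1 FPKM, where 2 of the 30 did. Of 38 HOX genes 4 had one, with HOXA4 (3.09 and 2.61 FPKM) the 1 with 1 FPKM, where 18 of the 38 reached it. Of 29 clustered protocadherins 12 had one, through shared spans. None of the 4 measured was marked, where 1 of the 6 measured in the list was marked lower. GALNT14 and GALNTL1 (0.0881 and 1.61 FPKM), marked higher in the authors' deposited table, and GALNT10 were the 3 of 19 GALNT genes with an end region. Over the 11 measured GALNT genes, with or without an end region, 3 were marked higher in that table.

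The labelled cell type was checked against its markers. Of 10 secretory epithelial markers found, 8 had 1 FPKM in EV cells and 5 in BORIS cells, with PAX8 at 71.3 and 72.5 FPKM and KRT7 at 1055 and 885 FPKM, while EPCAM was at 0.732 and 0.574 FPKM and OVGP1 at 0.0951 and 0.12 FPKM. Their summed level was 1780 FPKM with EV and 1526 FPKM with BORIS. The ciliated marker FOXJ1 and the T cell marker CD3E were listed at 0 in both libraries, and PTPRC stood at 0.0289 and 0.0371 FPKM. CD68 was at 1.48 and 2.26 FPKM and CD14 at 2.25 and 2.21 FPKM, so that 2 of 4 leukocyte markers had 1 FPKM in each library, with sums of 3.76 and 4.51 FPKM. Of 5 ciliated markers 1, CAPS, had 1 FPKM (1.47 and 1.11). Of 7 fibroblast markers 3 had 1 FPKM in EV cells and 2 in BORIS cells, with a sum of 127 and 99.2 FPKM, nearly all COL1A1 and COL1A2. DCN was listed at 0 in EV cells and was at 0.0114 FPKM with BORIS. Of 3 endothelial markers 2 had 1 FPKM in each library, with sums of 36.3 and 31.3 FPKM. Nearly all of this was CDH5, at 35.2 and 30.2 FPKM, while PECAM1 was at 0.00815 and 0.0134 FPKM. The part of these levels in the lower matrix and muscle genes was not tested.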

How the data were processed

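CTCF peaks of EV and BORIS cells and BORIS peaks of BORIS cells were taken as the authors deposited them, with a score of no stated unit and a position in each peak. Neither the peak caller nor its settings are given in the sources used here. RNA levels are FPKM values of both libraries with the authors' p-values, q-values and marks, in 1 deposited table. Bowtie, TopHat2, Cufflinks 2.0.0 and hg19 are named per the submitters' processing notes. Per the labels' protocols, RNA libraries were made with 1 of 2 kits. Which kit made which library was not given, so kit and arm cannot be told apart. Read depth was unknown for all files.

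Peaks and genes were joined by overlap and by distance in Python 3.11.15 with pandas 2.3.3. Log2 ratios are log2((BORIS + 1)/(EV + 1)) with a pseudocount of 1 FPKM, which understates differences of low genes. Shares carry Wilson and differences Newcombe intervals. Differences within deciles are weighted means over the deciles and carry normal-approximation intervals instead. No test was run, since each group had 1 sample. Genes and peaks are not replicates. The joining and counting were tested on simulated data. Alternatives were other overlaps, distances, minimums, pseudocounts, centring, motifs and subsets. The regions, gene lists, rules and tests were chosen with earlier results of these data known.

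Of 23278 gene rows 5967 shared a span, and 22891 lay on chromosomes of the peak lists. The plan called for start or stop only with a reference of build hg19. Instead strand and promoters were matched by symbol to RefSeq GRCh38.p14, after the data were seen, for 15394 rows, 2900 of them genes with an end region. Genes of chromosome 8 were not matched here. In 9278 of the 15394 the span length was within 1 kb of the RefSeq length. Named genes were those at the 6 regions of highest BORIS score and the 4 with most CTCF peaks, the 10 highest and 10 lowest ratios (usable estimate, official symbol, 1 FPKM, no small RNA family), the 2 largest ratios of each list, 2 regions either side of the distance limit, and GALNT14, CTCFL and CTCF. Promoters for print were to be those of named genes with most matches. They were held to genes with an end region at the start, and 3 were added after their values were seen.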

Additional observations from a re-analysis of the deposited data

How the results depend on the processing

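No paired analysis was possible because each group held 1 sample. The count of 3313 end regions became 1843 with 50% reciprocal overlap and 1378 when only peaks above the median score of each list were used. The share of BORIS peaks with constant CTCF that lay at a gene end, 22.8%, became 19.7% with 50% reciprocal overlap, 16.1% within 500 bp, 29.4% within 2 kb and 21.2% above the median scores. The share with several CTCF peaks, 3.32%, became 0.302% when only CTCF peaks above the median score of their list were counted. Genes higher by the fold, 53 of 3023 (176 of 12363 over all genes), became 92 with a pseudocount of 0.1 FPKM (246 over all genes). With a minimum of 5 FPKM they were 34 of 2331, about the same share as the 136 of 9332 over all genes. They were 27 of 2660 with 1 row per span, no small RNA genes and usable estimates (54 of 10903 over all genes). With the last 2 of these choices, an alternative chosen after seeing the data, they were 27 of 2922 (54 of 11904 over all genes). Genes lower, 22 (114 over all genes), became 3 and 4 under these last 2 alternatives (15 and 19 over all genes). The median log2 ratio became 0.0449 with those 3 choices together. The share of genes with an end region that passed the minimum, 72.7%, became 56.1% at 5 FPKM and 74.95% within 500 bp. The share of promoters with a core match, 24.5%, became 14.6% with a stricter core (CC, any 3 bases, AGG, any base and GGC), which 4.74% of all RefSeq promoters held, and 28.4% within 500 bp, and was 25.8% where span and RefSeq lengths were close. The following were added after seeing the data. Marks higher in the authors' deposited table, 10.7%, became 12.7% at starts, 2.96% at stops alone, 8.11% at 5 FPKM (3.88% of all genes) and 12.2% with 1 row per span, no small RNA genes and usable estimates (6.16% of all genes). Marks lower, 4.53%, became 6.99% at stops alone and 5.33% with 50% reciprocal overlap. Of 46 alternatives 22 stayed within the count limit or interval of the main value and 24 moved. A change of sign was possible for the median log2 ratio alone, and it did not occur there. Apart from changes that the construction of an alternative makes, the cause was not tested. With unknown depth, a peak that was not called cannot be read as an absent one.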
